A study of Rattus norvegicus with 4 samples.

Results

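The Rab proteins are small GTPases that mark membranes and steer vesicles between them. Their transcripts were measured in the livers of 4 male Otsuka Long-Evans Tokushima Fatty (OLETF) rats, an inbred strain that grows obese and diabetic on ordinary chow and that served for both groups. In the thiamine group, 2 rats had 0.2% thiamine (vitamin B1) in their drinking water, equal to 2 g per L, starting at 4 weeks of age and lasting 51 weeks. The 2 untreated rats drank water with 0% thiamine. All were killed at 55 weeks after 16 h of fasting, with 1 CodeLink array per rat and no pooled RNA. The study kept 8 rats per group, housed 2 to a cage. No source used here says how the 2 per group were picked or which of them were cage mates.

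Members were all probes that the platform annotation names Rab followed by a number, without interacting proteins or effectors, and Rab30 was singled out because of its difference between these groups. This gave 77 probes of 53 genes, among 33849 gene probes and 12469 named genes. A probe was kept if neither array of at least 1 group flagged it as near background or masked, which left 53 Rab probes of 39 genes among 18664 kept probes. The filter used the signal, and the difference of Rab30 was known when it was chosen, so the values of Rab30 are a description with no test.

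A Rab protein is active with GTP bound and inactive with GDP bound. Exchange factors load GTP, GTPase activating proteins speed its hydrolysis, and a GDP dissociation inhibitor returns the prenylated protein to the cytosol. Hepatocytes use this machinery to secrete plasma proteins and lipoproteins, to take up ligands from blood and to carry cargo across the cell to the bile canaliculus.

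Values are log2 normalized signals, differences are thiamine minus untreated on that scale, and each error is limma's moderated standard error, drawn towards the spread over all probes (n = 2 rats per group). Of the 53 kept Rab probes 34 had a higher mean with thiamine and 19 a lower one, and 50.9% of all kept probes had a higher one. Their median difference was 0.08, against 0.01 over all kept probes. Most differences were small: 38 of the 53 probes, or 71.7%, lay within 0.25 of no difference, against 73.4% of all kept probes. The median difference between the rats of 1 group was 0.18 for the thiamine pair and 0.20 for the untreated pair, and the median size of a group difference was 0.12. Over all kept probes these were 0.16, 0.22 and 0.15. A gap between single rats tends to exceed a difference between means of 2 rats even with no effect, so nothing is read from this order.

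**Figure D1:**
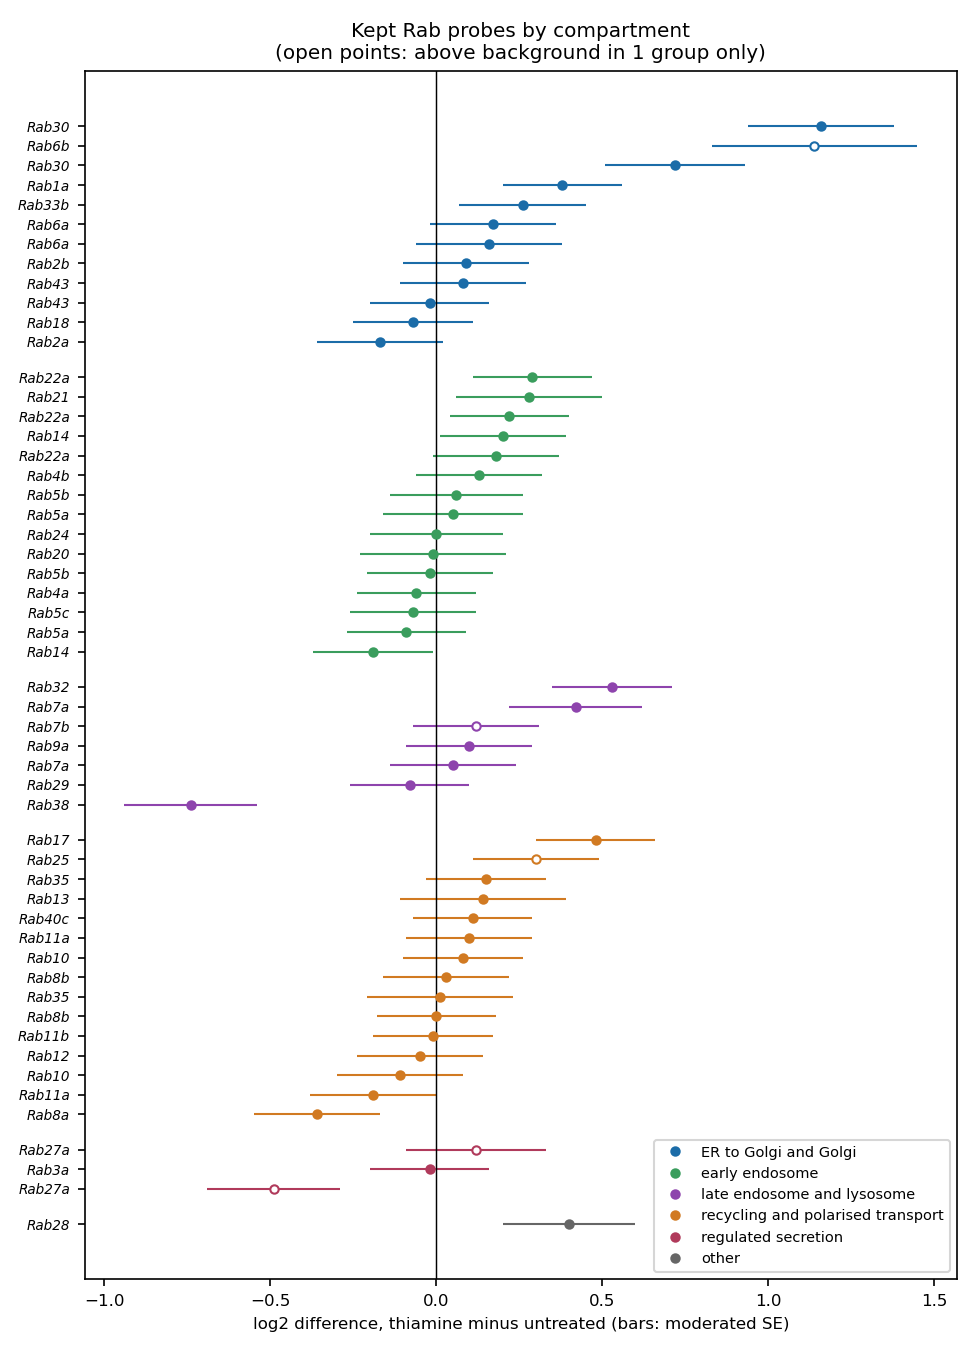
Difference in log2 signal (x axis, thiamine minus untreated) of each of the 53 kept Rab probes (rows, grouped by compartment), with the moderated SE as bars and open points for probes above background in 1 group only. The probes of Rab30 at 1.16 and 0.72 and Rab38 at -0.74 lie furthest out among the filled points, and most others lie within 0.25 of 0.

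No Rab probe was called. limma with Benjamini-Hochberg adjustment over all 18664 kept probes called 0 of the 53 at an adjusted p under 0.05, and 0 of all kept probes (0.0%). Without adjustment, 1260 probes in all had a p under 0.05 (6.75%), 3.81% higher and 2.94% lower, and 7 Rab probes, 5 higher and 2 lower. Both probes of Rab30 are among these 7, and 2 more were measured in 1 group only. Leaving out Rab30 and every probe above background in 1 group only, 3 of 46 Rab probes, or 6.52%, had an unadjusted p under 0.05, close to the share of all probes. The groups did not overlap for 18 kept Rab probes, or 34.0%, where 36.2% of all kept probes did not overlap. By direction 13 Rab probes were higher, or 24.5% against 17.8% of all kept probes, and 5 were lower, or 9.43% against 18.3%. These include probes kept through 1 group only. Among the 48 Rab probes above background in both groups 15 did not overlap, or 31.2%. Of these 11 were higher, or 22.9% against 16.2% of all probes above background on all 4 arrays, and 4 were lower, or 8.33% against 19.0%. At the median standard error of 0.19, a 95% interval reaches 0.42 to either side of a difference, or 1.34-fold.

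**Figure D2:**
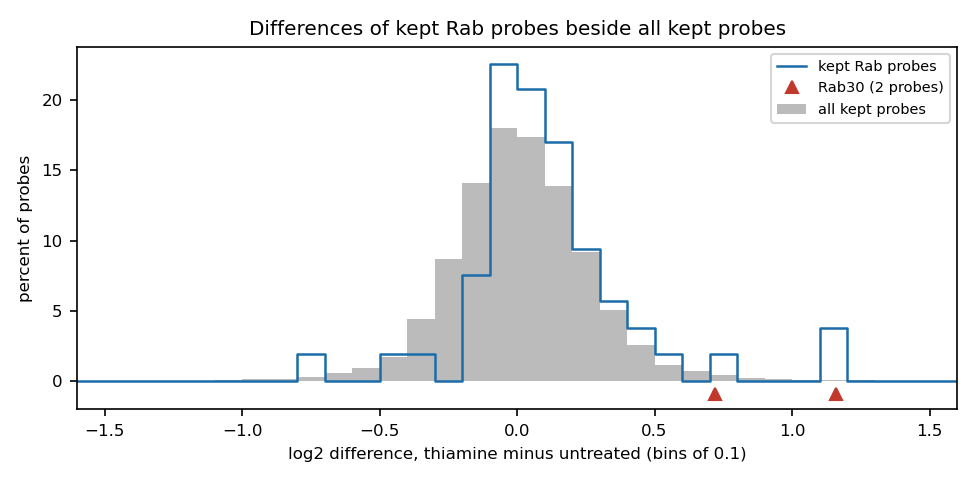
Percent of probes (y axis) by log2 difference, thiamine minus untreated (x axis, bins of 0.1), for the 53 kept Rab probes (line) and all 18664 kept probes (bars), with triangles for the probes of Rab30. Both distributions centre close to 0, at medians of 0.08 and 0.01.

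Rab30 stood furthest from 0 in the family. It is a Golgi Rab, and in mouse liver its transcript is known to rise with fasting; here both groups were fasted. Its brighter probe, annotated to a RefSeq transcript, read 12.04 and 12.58 in thiamine rats 1 and 2, against 10.96 and 11.33 in untreated rats 1 and 2. The background-subtracted intensities behind these were 4529 and 6216 in the thiamine livers and 1787 and 2370 in the untreated livers. Both thiamine rats lay above both untreated rats, and the lower thiamine value was still above the higher untreated one. The difference was 1.16 ± 0.22, or 2.24-fold. A dimmer probe, annotated to an expressed sequence tag, read 9.76 and 10.20 in the thiamine rats and 9.11 and 9.40 in the untreated rats, a difference of 0.72 ± 0.21 or 1.65-fold. The probes ordered the 4 rats alike, with thiamine rat 2 highest and untreated rat 1 lowest. They share the same 4 RNA samples and are no independent measurement of the rats. At least 2-fold apart without overlap were 0.396% of all kept probes, and this held for 1 of the probes of Rab30. The value rested in part on single rats. Without thiamine rat 2 the difference of the brighter probe was 0.90, and without thiamine rat 1 it was 1.44.

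The promoter windows of Rab30, Rab17 and Rab32 are shown. These Rab genes were the furthest above 0 among those measured in both groups. Rab38, the furthest below 0, was also to be shown, but no window was given for it. The windows shown therefore hold no gene that was lower with thiamine. Each is the RefSeq window of 300 bases, 250 before and 50 after the annotated start, in GRCr8 and 5′ to 3′ on the gene's strand. Rab30 lies at chr1:156215887-156216186 on the plus strand, Rab17 at chr9:99013983-99014282 on the minus strand and Rab32 at chr1:6781209-6781508 on the minus strand. Capitals mark CCAAT on either strand.
Rab30: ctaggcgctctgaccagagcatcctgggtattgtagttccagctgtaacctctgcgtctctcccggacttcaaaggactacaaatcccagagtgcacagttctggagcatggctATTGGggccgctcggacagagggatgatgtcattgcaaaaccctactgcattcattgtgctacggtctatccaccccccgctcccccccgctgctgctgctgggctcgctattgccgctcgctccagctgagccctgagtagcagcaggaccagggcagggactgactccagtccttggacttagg
Rab17: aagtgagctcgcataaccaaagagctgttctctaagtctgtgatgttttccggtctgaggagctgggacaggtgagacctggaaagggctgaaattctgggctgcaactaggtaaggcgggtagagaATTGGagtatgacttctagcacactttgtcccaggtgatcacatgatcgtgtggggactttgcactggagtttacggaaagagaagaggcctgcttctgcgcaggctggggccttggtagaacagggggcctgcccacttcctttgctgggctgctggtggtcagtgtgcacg
Rab32: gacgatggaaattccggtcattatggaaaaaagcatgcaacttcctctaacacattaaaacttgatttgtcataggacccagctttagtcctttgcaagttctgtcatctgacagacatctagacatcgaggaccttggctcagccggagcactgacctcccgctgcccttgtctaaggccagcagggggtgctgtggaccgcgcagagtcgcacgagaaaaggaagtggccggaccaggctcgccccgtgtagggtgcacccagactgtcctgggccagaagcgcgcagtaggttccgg
The windows of Rab30 and Rab17 each held 1 CCAAT match, on the opposite strand and starting at positions -136 and -123 from the start, and that of Rab32 held no motif searched. CCAAT was found in 37.7% of 27457 such windows and in 17 of the 44 Rab windows given. GGGCGG, the core of the GC box, was in 36 of the 44 Rab windows, or 81.8%, against 34.9% of all windows. Of the 8 Rab windows without it, 3 are those of Rab30, Rab17 and Rab32, and the others belong to Rab6a, Rab12, Rab19, Rab25 and Rab27b. TATAAA was in none of the 44 and in 14.3% of all windows, TGACG in 34.1% against 22%, and CACGTG in 9.09% against 6.65%. Of the other motifs searched, TTCNNNGAA was in 4.55% against 8.68%, while TGTTTAC (3.76% of all windows) and the direct repeat of nuclear receptors with a 1-base spacer (0.0583%) were in none of the 44; overlapping matches were counted. A match is only a description of these letters, and the motifs were chosen after the values were seen.

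Among the Rabs of the endoplasmic reticulum and the Golgi, 12 of 17 probes were kept, from 9 of 13 genes, and 9 were higher and 3 lower. Their median difference was 0.16, or 0.13 with Rab30 left out. Rab1a, which directs transport from the endoplasmic reticulum to the Golgi, read 13.53 and 13.42 in the thiamine rats against 13.07 and 13.11 in the untreated rats. The groups were apart by more than the rats of either group, and the difference of 0.38 ± 0.18 had an adjusted p of 0.75. Rab33b, a Golgi Rab that also binds the autophagy protein Atg16l1, read 10.82 and 10.55 in the thiamine rats and 10.46 and 10.40 in the untreated rats. These groups did not overlap either, with a difference of 0.26 ± 0.19. Rab6a, which runs retrograde transport from the Golgi, differed by 0.16 and 0.17 on its probes, and the groups overlapped on both. Rab18, a Rab of the endoplasmic reticulum and of lipid droplets, differed by -0.07 ± 0.18. Rab2a, of the early secretory pathway, read 10.11 and 9.78 in the thiamine rats against 10.13 and 10.09 in the untreated rats, and its difference of -0.17 ± 0.19 came from thiamine rat 2: without that rat it was 0.00. Rab6b, a relative of Rab6a best known from neurons, read 7.65 and 7.91 in the thiamine rats. Both untreated signals, 6.06 and 7.23, were not well above background, and the first was also flagged as contaminated. Against the lowest signal above background it was at least 1.45-fold higher in the thiamine livers, and the fitted 1.14 ± 0.31 (adjusted p = 0.34, limma) is no measured size: it was 0.56 with flagged spots set to missing and 2.92 on background-subtracted intensities. A bound replaces the dim group's value, array by array, with the higher of its own signal and the lowest signal of any probe above background there. It was kept only through the thiamine group, where it is high, so its p supports nothing; with 1 rat left out the fitted value lay between 0.56 and 1.75.

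**Figure D3:**
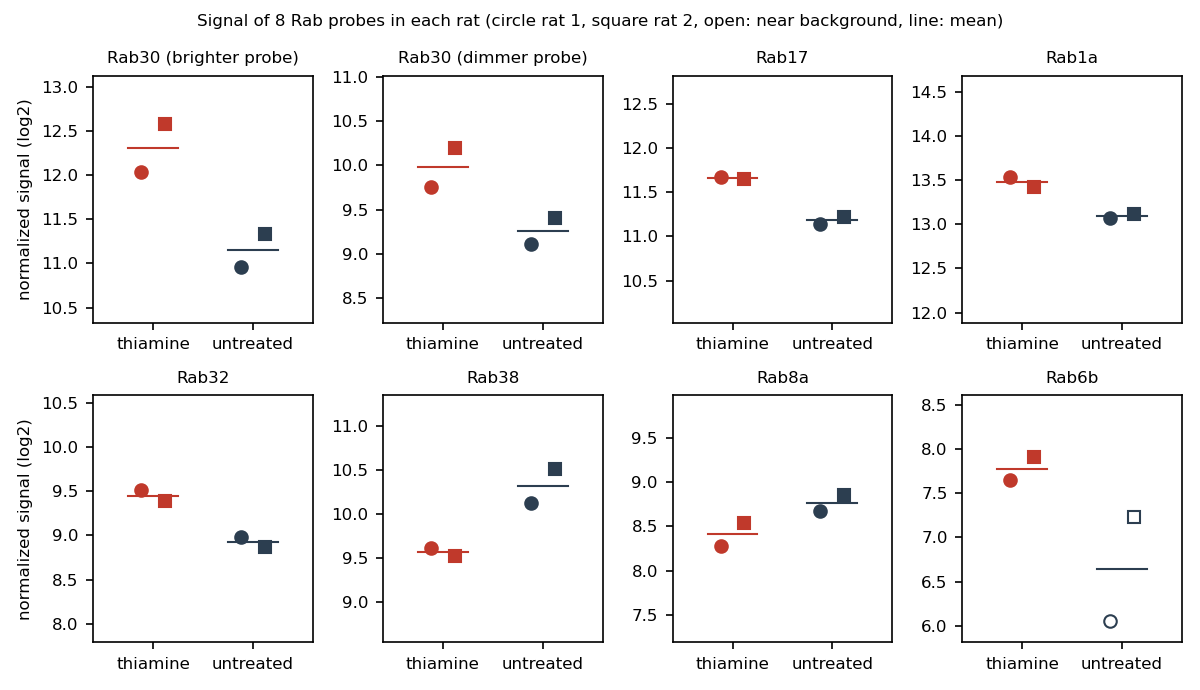
Log2 normalized signal (y axis, each panel spanning the same range) of 8 Rab probes in thiamine and untreated rats, with circles for rat 1, squares for rat 2, open symbols for signals near background and lines for the mean. Thiamine rats lie above untreated rats in the panels of Rab30, Rab17, Rab1a, Rab32 and Rab6b, and below them in those of Rab38 and Rab8a.

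Rabs of early endosomes varied little. Of 18 probes 15 were kept, from 10 of 11 genes, with 9 higher, 6 lower and a median difference of 0.05. None had an unadjusted p under 0.05, and their differences ran from -0.19 to 0.29. Rab5a, Rab5b and Rab5c, which organise the fusion of early endosomes, lay between -0.09 and 0.06 over 5 probes. Rab4a and Rab4b, of fast recycling, differed by -0.06 ± 0.18 and 0.13 ± 0.19. Rab22a, an endosomal Rab with 3 kept probes, was higher on each by 0.18 to 0.29. Its probe with the difference of 0.29 ± 0.18 read 8.32 and 8.56 in the thiamine rats and 8.13 and 8.17 in the untreated rats, without overlap. Rab14, which moves between the Golgi and endosomes, gave opposite signs on its probes. The brighter read 12.18 and 12.20 in the thiamine rats against 12.38 and 12.40 in the untreated rats, a difference of -0.19 ± 0.18. Its intensities before normalization overlapped, at 4990 and 4846 in the thiamine rats and 4874 and 5136 in the untreated rats. Before normalization the thiamine arrays were brighter in general, with medians of 150 and 159 against 131 and 130. In the deposited values, which have the same median on every array, this probe did not overlap, at 4601 and 4673 against 5305 and 5286. The dimmer read 8.02 and 8.09 in the thiamine rats against 7.68 and 8.03 in the untreated rats, at 0.20 ± 0.19, or 0.02 without untreated rat 1. Rab31, a trafficking Rab of the trans-Golgi and endosomes, was the 1 gene of this group with no kept probe.

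Late endosomal and lysosomal Rabs held the furthest differences in both directions after Rab30 among probes measured in both groups. Of 11 probes 7 were kept, from 6 of 7 genes, with 5 higher and 2 lower. Rab32 and Rab38 are close relatives that sort cargo to lysosome-related organelles such as melanosomes, and Rab38 is the gene mutated in the Ruby rat. Rab32 read 9.52 and 9.39 in the thiamine rats against 8.98 and 8.87 in the untreated rats. Rab38 went the other way, with 9.62 and 9.53 in the thiamine rats against 10.13 and 10.51 in the untreated rats. For both genes the rats of 1 group were closer to each other than to the other group. The difference of Rab32 was 0.53 ± 0.18, or 1.44-fold (adjusted p = 0.54, limma). That of Rab38 was -0.74 ± 0.20, or 0.597-fold (adjusted p = 0.31, limma), the lowest in the family. Leaving out untreated rat 2 gave -0.55 and leaving out untreated rat 1 gave -0.94, whereas Rab32 stayed between 0.46 and 0.60 over 12 alternatives. The exchange factor of both is a dimer of Hps1 and Hps4. Hps4 read 8.92 and 9.14 in the thiamine rats and 8.66 and 8.45 in the untreated rats, a difference of 0.47 ± 0.19, while Hps1 differed by 0.19 ± 0.21 with overlap. Rab7a, the main Rab of late endosomes and lysosomes, read 11.96 and 11.86 on 1 probe in the thiamine rats against 11.27 and 11.73 in the untreated rats. That difference of 0.42 ± 0.20 was 0.19 without untreated rat 1, and the other probe of Rab7a gave 0.05 ± 0.19 with overlap. Rab9a, which returns mannose 6-phosphate receptors to the Golgi, differed by 0.10 ± 0.19 and Rab29 by -0.08 ± 0.18.

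Markers of Kupffer cells, the liver's macrophages, lay higher in the thiamine livers, but limma called none of them (lowest adjusted p = 0.33). Of the markers on the other lists below it called none either (lowest adjusted p = 0.31). The markers of a list share the same 4 livers and are not separate observations. Of 14 listed markers 11 had a named probe and 10 were above background in at least 1 group, all higher in the thiamine livers, with a median of 0.62 and 7 without overlap (17.8% of all kept probes were higher without overlap). Their summed linear signal was 30880 and 21490 in thiamine rats 1 and 2 and 21020 and 13630 in untreated rats 1 and 2. The lower thiamine sum was thus close to the higher untreated one. Lyz2 was the listed marker with a probe that was not above background. Markers of liver endothelium summed to 5757 and 5137 in the thiamine rats and 3952 and 3943 in the untreated rats, with 5 of 6 measured markers higher. Lymphocyte markers summed to 2008 and 1891 in the thiamine rats and 1770 and 1599 in the untreated rats, from 5 of 9 with a probe, with Cd4, Cd8a, Gzmb and Ptprc not above background. Hepatocyte markers, all 10 above background, summed to 235200 and 246900 in the thiamine rats and 235500 and 239700 in the untreated rats. Not all other lists were higher. Stellate cell markers, 5 of 7 with a probe, had a median of 0.02 and summed to 5042 and 4408 in the thiamine rats and 5129 and 4051 in the untreated rats. S100a9, the 1 neutrophil marker above background, was at -0.38 without overlap. The 2 red blood cell markers had a median of 0.20, with overlap. The part of these cell types in the differences of Rab32, Rab30 and the other Rabs was not tested. In whole liver RNA, fewer cells of a type and less RNA per cell cannot be told apart.

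Rabs of recycling and of polarised transport were mostly close to 0. Of 20 probes 15 were kept, from 11 of 13 genes, with 9 higher, 6 lower and a median of 0.03. Rab17, an epithelial Rab of recycling endosomes and transcytosis, read 11.67 and 11.65 in the thiamine rats against 11.14 and 11.22 in the untreated rats. Its values barely differed within a group, and its difference was 0.48 ± 0.18, or 1.39-fold (adjusted p = 0.60, limma), between 0.43 and 0.51 over 12 alternatives. Rab8a, which delivers vesicles to the apical membrane and to cilia, read 8.28 and 8.54 in the thiamine rats and 8.67 and 8.86 in the untreated rats. The difference of Rab8a was -0.36 ± 0.19 (adjusted p = 0.81, limma). Before normalization its intensities overlapped, at 263 and 344 in the thiamine rats and 320 and 374 in the untreated rats. The thiamine arrays were brighter in general at that step. In the deposited values, which have the same median on every array, Rab8a did not overlap, at 250 and 313 against 348 and 404. Its difference was -0.22 without thiamine rat 1. Its close relative Rab8b was at 0.03 and 0.00 on its probes. Rab10, which carries the glucose transporter Glut4 in fat cells, differed by -0.11 and 0.08. Rab11a, the Rab of slow recycling, gave -0.19 on its brighter probe, at 12.11 and 12.01 in the thiamine rats and 12.39 and 12.11 in the untreated rats, and 0.10 on the dimmer, while Rab11b differed by -0.01 ± 0.18. Without untreated rat 1 the brighter probe of Rab11a was at -0.05. Rab35, Rab13, Rab12 and Rab40c differed by -0.05 to 0.15. Rab25, an epithelial relative of Rab11a, read 7.39 and 7.68 in the thiamine rats while both untreated rats, at 7.31 and 7.15, were not well above background, a bound of at least 1.2-fold higher with thiamine (limma, adjusted p = 0.84). The fitted difference of Rab25 was 0.30, or 0.15 without thiamine rat 2. Rab25 was kept only through the thiamine group, where it is high, so its p supports nothing. Bile duct markers, from a further epithelium of the liver, had 2 of 5 with a probe above background and summed to 732 and 850 in the thiamine rats and 1159 and 685 in the untreated rats; Muc1, Sox9 and Spp1 were not above background.

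Rabs of regulated secretion were largely not measured in liver. Of 9 probes 3 were kept, from Rab3a and Rab27a. Rab27a, which docks secretory lysosomes and exosomes, gave opposite signs on 2 dim probes of the same transcript. The first read 7.43 and 7.17 in the thiamine rats, not well above background, against 7.96 and 7.62 in the untreated rats, so that Rab27a was at least 1.4-fold lower in the thiamine livers on it by that rule (limma, adjusted p = 0.66). The spot of untreated rat 1 was flagged as contaminated, and the fitted difference of -0.49 was -0.32 with flagged spots set to missing or without that rat, so the bound rests on it. That probe was kept only through the untreated group, where it is high, so its p supports nothing. The second read 7.54 and 7.70 in the thiamine rats against 7.73 and 7.26 in the untreated rats, with the last near background, a difference of 0.12 ± 0.21 that was -0.11 without untreated rat 2. Rab3a, of synaptic and secretory vesicles, differed by -0.02 ± 0.18. Rab28, a Rab of photoreceptor cilia, was at 8.71 and 8.26 in the thiamine rats and 8.19 and 7.99 in the untreated rats, a difference of 0.40 ± 0.20, and its spot in thiamine rat 1 was flagged as irregular.

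Probes of the same gene show how far single probes differ on the same 4 RNA samples. Their gap leaves out the variation between rats. Of the 13 Rab genes with at least 2 kept probes, 5 had the same sign on all of them and 8 had opposite signs. The latter include genes close to 0 on both probes, such as Rab5b at -0.02 and 0.06. The gap between the probes of a gene had a median of 0.14 and reached 0.61 for Rab27a, 0.44 for Rab30, 0.40 for Rab14 and 0.36 for Rab7a. Rab30 and Rab22a were the genes of which at least 2 probes separated the groups in the same direction.

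Of the Rab genes not given above, Rab2b, Rab20, Rab21, Rab24 and Rab43 were above background on all 4 arrays. They differed by -0.02 to 0.28, with overlap on each probe. The Rab genes with no kept probe were near background on all or most arrays. No probe was kept for 14 genes: Rab3b, Rab3c, Rab3d, Rab9b, Rab15, Rab19, Rab23, Rab26, Rab27b, Rab31, Rab33a, Rab36, Rab39a and Rab40b. Of the 24 probes not kept, 19 were near background on every array and 5 were above it on 1 array. Just outside the filter, a probe of Rab31 read 7.01 and 7.04 in the thiamine rats and 7.74 and 7.12 in the untreated rats and was above background only in untreated rat 1. Just inside it, a probe of Rab7b read 7.61 and 7.66 in the thiamine rats and 7.39 and 7.64 in the untreated rats and was near background only in untreated rat 1. In all, 48 of the 53 kept Rab probes passed in both groups, as did 16180 of all 18664 kept probes. Another 4 passed in the thiamine group alone and 1 in the untreated group alone. Above background were 19075 and 20071 gene probes on the thiamine arrays and 18176 and 18392 on the untreated arrays. Of the 77 Rab probes these were 53 and 52 against 53 and 51. More probes passed on the thiamine arrays in general, so nothing about Rabs is read from the split of 4 and 1.

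Genes that act on Rab proteins were mostly close to 0 as well. Of 82 measured genes of this machinery 43 lay above and 39 below the untreated level, at a median of 0.02. The groups did not overlap for 31, or 37.8%, against 36.2% of all kept probes, 12 higher and 19 lower. limma called none of them, and 4 had an unadjusted p under 0.05, or 4.88% against 6.75% of all kept probes. The effectors Rilpl2 and Rab11fip3 are among these 4 and were kept only through the thiamine group, where they are high. Of 9 measured genes of prenylation and GDP dissociation 3 were higher and 6 lower, between -0.27 for Chm, the escort protein of the prenyl transferase, and 0.22 for the GDP dissociation inhibitor Gdi2. Of 23 measured genes on the list of exchange factors, which also holds the Rab-like GTPase Rabl6, 15 were higher and 8 lower. Ankrd27, an exchange factor of Rab21 that also binds Rab32 and Rab38, read 12.45 and 12.44 in the thiamine rats against 12.92 and 12.65 in the untreated rats, at -0.34 ± 0.19 (limma, adjusted p = 0.81). Of 18 GTPase activating proteins 10 were higher and 8 lower. Tbc1d4, the insulin-regulated one that acts on Rab8a, Rab10 and Rab14, read 9.23 and 9.14 in the thiamine rats and 8.90 and 8.60 in the untreated rats, at 0.43 ± 0.19 (limma, adjusted p = 0.72).

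Effectors bind active Rabs. Of 32 measured genes on the effector list, which also holds the receptor M6pr, 15 were higher and 17 lower. Without overlap 4 were higher and 10 lower. That is 43.8% of the list, against 36.2% of all kept probes (17.8% higher and 18.3% lower), and nothing particular to effectors is read from it. Golgi tethers on the list did not all go 1 way: Uso1, Golga2 and Golga4 were at -0.29, -0.25 and -0.28 and Gcc2 at 0.08, none of them called. Golga2, which binds Rab1a on the cis-Golgi, read 9.63 and 9.54 in the thiamine rats and 9.88 and 9.79 in the untreated rats. The endosomal tethers Eea1 and Rabep1 were at -0.21 each, with overlap for Eea1. Rilpl2, of the family that links Rabs to motors, read 8.20 and 7.98 in the thiamine rats while both untreated rats, at 7.47 and 7.30, were not well above background, a bound of at least 1.63-fold higher with thiamine (limma, adjusted p = 0.31). Rab11fip3, which binds Rab11a, was at least 1.09-fold higher on the same basis (limma, adjusted p = 0.36). Rilpl2 and Rab11fip3 were kept only through the thiamine group, where they are high, so their p values support nothing. Plin3, a lipid droplet coat that also binds Rab9a, read 11.03 and 11.24 in the thiamine rats against 10.96 and 10.84 in the untreated rats, at 0.24 ± 0.18.

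**Figure D4:**
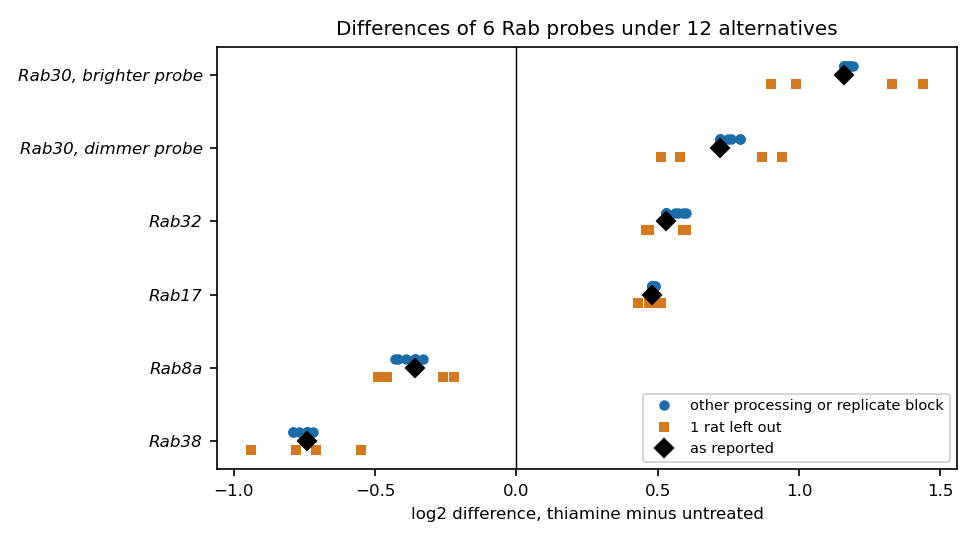
Log2 difference, thiamine minus untreated (x axis), of 6 Rab probes (rows) as reported (diamonds), with other processing or the replicate number as a block (circles) and with 1 rat left out (squares). No point crosses 0, and leaving out a rat moved Rab30 (between 0.90 and 1.44 on the brighter probe) and Rab38 (between -0.94 and -0.55) further than any other processing did.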

How the data were processed

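The deposited data are 4 reports of 1-colour CodeLink arrays written by CodeLink Expression Analysis, per the file headers, each giving the intensity of a spot, its local background and a quality flag. A second deposited table gives intensity values that keep the scanner values' order (Spearman's rho of 1.0) with a median of 147.5 on each array; how it was made is not stated.

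Background was corrected with normexp (offset 50) over 35129 features, 1280 controls were left out, and log2 values of 33849 gene probes were quantile normalized. Masked spots were set to missing and contaminated ones were kept. Groups came from the labels' titles. Groups were tested in limma 3.58.1 under R 4.3.3 (two-sided, Benjamini-Hochberg over 18664 kept probes, threshold 0.05) on 2 residual degrees of freedom, 10.8 after moderation. The number of arrays limits the precision. Labels name separate rats.

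Gene names came from the platform annotation, with 16753 probes of 1 symbol and 165 of several; all 77 Rab probes kept their symbol in the GRCr8 RefSeq table, and 1 further probe, named Rab34 only through that table, is no member. Pathway and marker genes are given by their brightest kept probe. Each Rab probe was given for every rat if its unadjusted p was under 0.05, if it was among the 6 highest or 6 lowest differences, if its gene had probes of opposite sign over 0.3 apart, or if it was measured in 1 group only; of the pathway, genes with an unadjusted p under 0.05 were named, and the others named were chosen after their values were seen. The members and lists were chosen with earlier results of these data known. The labels do not say that same-numbered rats are pairs. Deviations of same-numbered rats from their group means had a correlation of -0.07 over probes. With 2 rats per group this rests on a single contrast of the arrays and cannot exclude a pairing. Alternatives changed the background correction, scaling, filter, flagged spots, source of values, block and rats. The fit was also run on simulated data with independent probes and no shared array effects, unlike real arrays, and nothing reported here rests on that run.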

Additional observations from a re-analysis of the deposited data

How the results depend on the processing

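The count of 0 called probes held under background-subtracted intensities, an offset of 16, median scaling, either filter, missing flagged spots and the deposited table, with between 1003 and 1759 probes at an unadjusted p under 0.05. With the replicate number as a block limma called 126 probes, of which 2 were Rab probes: Rab30, chosen for its difference, and Rab6b, kept only through the thiamine group where it is high, so that neither call is a test, and the numbers pair no rats; leaving out 1 rat, with the lone rat assumed to vary like the other group, it called between 1 and 50. The cause was not tested. The difference of Rab30 lay between 0.90 and 1.44 with 1 rat left out and was 0.72 on its dimmer probe, a comparison added after seeing the data. The median difference of the Rab probes, 0.084 as reported, was 0.115 with median scaling, 0.012 with no filter on dim probes (77 probes), 0.1 with the deposited table and between 0.043 and 0.089 with 1 rat left out. Rab probes higher without overlap numbered between 21 and 24 with 1 rat left out, and those lower between 9 and 17, because a lone array cannot overlap itself. Those lower numbered 12 with no filter, over 77 probes, and 8 with flagged spots set to missing, where some groups held 1 value. Rab27a was at -0.11 on its second probe without untreated rat 2 and between -0.11 and 0.36 with any 1 rat left out; no other Rab probe recomputed under the alternatives changed sign. The block changed no other call of a named Rab probe. Leaving out Rab30, or taking 1 probe per gene, both added after seeing the data, gave medians of 0.08 each.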
